A study of Mus musculus with 8 samples.

Results

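Fibrillar collagens are the rope-like proteins that give connective tissue its tensile strength, and the fibril-associated collagens with interrupted triple helices (FACIT) coat the surface of those fibrils. The members described here are 10 mouse genes: Col1a1, Col1a2, Col3a1, Col5a1, Col5a2, Col5a3 and Col11a1, which encode chains of fibrillar collagens, and Col12a1, Col14a1 and Col16a1, which encode FACIT chains. They were taken as every probe set of the array annotated to exactly 1 of these genes, which gave 24 of the 45037 probe sets that are not controls. The rule reads the annotation and not the measured values, but the gene family itself was picked with earlier results of these data known. Expression was measured in SThdh7/7 (4 samples) and SThdh111/111 (4 samples), with 1 Affymetrix array for each, as scaled intensities given here as log2 values.

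Both lines are immortalised striatal precursor cells derived from embryos that carry a knock-in at the Huntingtin locus. The 7 or 111 in the name stands for the polyglutamine stretch encoded by both Htt alleles, and SThdh111/111 carries the long stretch that models Huntington's disease. Each genotype is represented by a single line, so the effect of the allele and any other difference between the lines cannot be told apart. The labels name no treatment or passage and do not say whether samples came from different cultures, so the p-values reflect sample-to-sample spread that may be technical. In bulk RNA of this kind, a different share of collagen-making cells and a different amount of collagen RNA per cell cannot be told apart either.

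As background, 3 collagen chains wind into a triple helix inside the cell, after prolines and lysines have been hydroxylated in the endoplasmic reticulum. Collagen I pairs Col1a1 with Col1a2 chains, collagen III is built from Col3a1 chains alone, and collagen V combines Col5a1 with Col5a2 or Col5a3 chains and starts and limits the growth of collagen I fibrils. Outside the cell the propeptides are removed, fibrils assemble and lysyl oxidases crosslink them. In the brain these genes are known mainly from the meninges and the fibroblasts around blood vessels, and not from striatal neurons.

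The collagen genes did not move as a block. Collagen I and III genes were strongly higher in SThdh111/111, with Col1a2 up 20.2-fold, Col1a1 up 4.51-fold and Col3a1 up 2.28-fold, while Col5a1 and Col5a3 were 2.29-fold and 2.39-fold lower. At the brightest probe set of each gene, 6 of 10 members were higher, 3 were lower and 1, Col14a1, was not called (limma, Benjamini-Hochberg adjusted p under 0.05 over all probe sets tested). Among all 17389 named genes 29.0% were called, 13.1% higher and 15.9% lower, and among the 9860 genes above the control floor on all 8 arrays 41.9% were called, 19.0% higher and 22.9% lower. The lines did not overlap for 9 of 10 members, against 31.6% of all named genes and 44.6% of those above the floor on all arrays. The median difference over the members was 0.55 in log2 units, against -0.09 over all named genes.

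**Figure D1:**
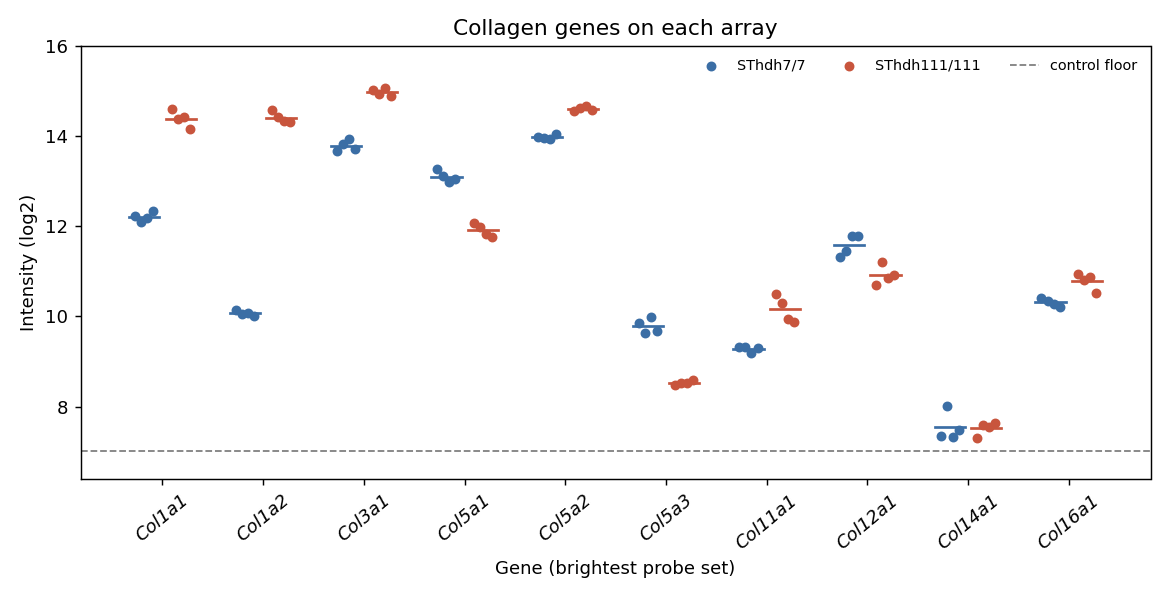
Log2 intensity (y axis) of the brightest probe set of each collagen gene (x axis) on each array; blue points are SThdh7/7 arrays, red points SThdh111/111 arrays, short bars are means of 4, and the dashed line is the control floor at 7.02. SThdh111/111 lies above SThdh7/7 without overlap for 6 genes and below it for Col5a1, Col5a3 and Col12a1, while Col14a1 overlaps; heights of different genes are not comparable, since each probe set responds differently.

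The control floor used here is taken from 27 bacterial control probe sets, as the intensity that 95% of them stay under on the array where this is highest, a log2 intensity of 7.02. Of the 24 member probe sets 18 lay above it on all arrays, 5 below it on all arrays and 1, for Col14a1, around it. All 10 genes passed the filter on dim values and 23 of the 24 probe sets did. Of these 23, 11 were higher and 5 lower, against 9.87% and 12.6% of all 41409 probe sets tested (22.4% in either direction). All 16 called were among the 18 bright ones, where 39.3% of all bright probe sets were called. For the 7 genes with more than 1 bright probe set, the differences had the same sign at every one of them, and 6 of the 7 genes were called the same way throughout.

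**Figure D2:**
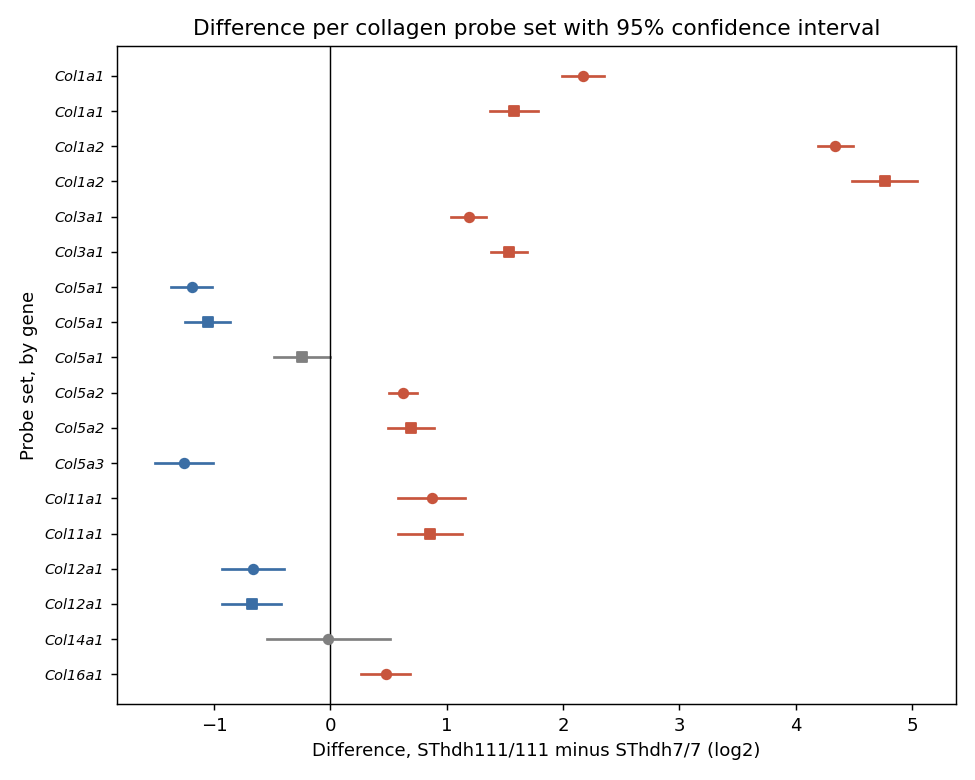
Difference between the lines (x axis, log2, SThdh111/111 minus SThdh7/7) for the 18 bright probe sets, listed by gene (y axis), with 95% confidence intervals as lines; circles are the brightest probe set of a gene, squares the others, red called higher, blue called lower and grey not called. The Col1a2 probe sets stand at 4.34 and 4.77, and 1 of the 3 Col5a1 probe sets, at -0.24, was not called.

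Promoter sequence was at hand for 6 members, Col1a2, Col3a1, Col5a1, Col5a3, Col11a1 and Col16a1. The 250 bases before the RefSeq start (GRCm38.p6) of the member with the largest rise, of Col3a1 and of both collagen V genes that fell are shown, because these genes went in opposite directions. Capitals mark matches, on either strand, to 3 motifs. The CCAAT box is bound by the factor NF-Y. The GC box, a site of the Sp family, was searched as GGGCGG. The TATA box, which places the start of transcription, was searched as TATAAA.
Col1a2: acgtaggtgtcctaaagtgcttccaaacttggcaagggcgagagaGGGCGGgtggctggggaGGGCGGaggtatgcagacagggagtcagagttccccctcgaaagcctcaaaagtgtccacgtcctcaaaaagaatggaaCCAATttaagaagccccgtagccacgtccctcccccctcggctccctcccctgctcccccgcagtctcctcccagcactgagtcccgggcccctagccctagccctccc
Col3a1: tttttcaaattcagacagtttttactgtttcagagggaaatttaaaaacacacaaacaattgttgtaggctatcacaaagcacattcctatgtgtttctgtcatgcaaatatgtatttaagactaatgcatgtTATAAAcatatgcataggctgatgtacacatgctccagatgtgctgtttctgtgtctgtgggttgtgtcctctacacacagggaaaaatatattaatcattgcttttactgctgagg
Col5a1: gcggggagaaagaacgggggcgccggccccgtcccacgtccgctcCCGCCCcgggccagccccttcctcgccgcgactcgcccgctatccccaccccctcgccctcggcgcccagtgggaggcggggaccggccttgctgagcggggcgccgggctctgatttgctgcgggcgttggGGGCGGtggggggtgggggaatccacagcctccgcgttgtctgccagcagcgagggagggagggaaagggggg
Col5a3: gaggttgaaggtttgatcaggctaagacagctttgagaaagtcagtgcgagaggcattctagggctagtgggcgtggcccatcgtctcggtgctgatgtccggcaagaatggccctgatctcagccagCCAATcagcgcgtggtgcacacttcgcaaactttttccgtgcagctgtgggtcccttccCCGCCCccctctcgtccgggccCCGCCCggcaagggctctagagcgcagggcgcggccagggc

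These windows lie at chr6:4505368-4505617 (plus strand) for Col1a2, chr1:45311288-45311537 (plus strand) for Col3a1, chr2:27886175-27886424 (plus strand) for Col5a1 and chr9:20815068-20815317 (minus strand) for Col5a3. A CCAAT match stood 109 to 105 bases before the start in Col1a2 and 122 to 118 bases before it in Col5a3, so it was present both in a gene that rose and in one that fell. Of the 6 members 4 held CCAAT, against 33.8% of all 32851 windows of that length, and 5 held a GC box, against 32.7%. Col3a1 alone held TATAAA, at 117 to 112 bases before the start (12.4% of all windows). The interferon-stimulated response element was searched for as well and matched in 0 of the 6, against 2.98% of all windows. GC content was 76.4% for Col5a1 and 35.2% for Col3a1, with Col1a2 at 62.0% and Col5a3 at 62.8%. A match describes the letters only.

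Collagen I is the main fibril-forming collagen of bone, skin and tendon. Its chain gene Col1a1 (chromosome 11, probe set 1423669_at), read 12.24, 12.10, 12.18 and 12.34 (log2 intensity) on the 4 SThdh7/7 arrays and 14.59, 14.37, 14.41 and 14.17 on the 4 SThdh111/111 arrays. Every SThdh111/111 array was higher than every SThdh7/7 array. The difference was 2.17 ± 0.09 (SE, n = 4 per line; adjusted p = 3.8e-10). A dimmer Col1a1 probe set differed by 1.58 ± 0.10 (SE; adjusted p = 3.6e-08).

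The partner chain gene, Col1a2 (chromosome 6, probe set 1450857_a_at), read 10.14, 10.06, 10.08 and 10.01 in SThdh7/7 and 14.58, 14.43, 14.33 and 14.30 in SThdh111/111, a log2 difference of 4.34 ± 0.07 (SE; adjusted p = 7.7e-14). The values within a line lay close together and those of the lines far apart. By the size of its rise Col1a2 ranked 18 among the 9860 genes above the floor on all arrays, and Col1a1 ranked 120. Another bright Col1a2 probe set rose by 4.77 ± 0.13 (SE; adjusted p = 1.1e-11), from 7.83 ± 0.27 (SD) to 12.60 ± 0.16. The remaining one was below the floor on all arrays and was not called (adjusted p = 0.33).

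Col3a1 makes the thin fibrils that accompany collagen I in skin, vessel walls and scars. At probe set 1427883_a_at (chromosome 1) it read 13.68, 13.81, 13.93 and 13.72 in SThdh7/7 and 15.02, 14.93, 15.06 and 14.89 in SThdh111/111, a difference of 1.19 ± 0.07 (SE; adjusted p = 2.2e-08). The lines were again fully separated. In intensity units the SThdh111/111 values were 30300 to 34100, where the highest probe set on those arrays read 46336 to 50125, so Col3a1 was near the top of the scale. A dimmer Col3a1 probe set, 1427884_at, rose more, by 1.54 ± 0.07 (SE; adjusted p = 1.9e-09), from 10.10 ± 0.07 (SD) to 11.64 ± 0.06.

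The collagen V genes split. Col5a1 (chromosome 2, probe set 1416740_at), the chain present in most collagen V molecules, read 13.27, 13.11, 12.99 and 13.04 in SThdh7/7 and 12.07, 11.98, 11.82 and 11.77 in SThdh111/111. It fell by 1.19 in log2 units (SE 0.08; adjusted p = 1.1e-07), with every SThdh111/111 array lower. A dimmer probe set, 1434479_at, fell by 1.06 in log2 units (adjusted p = 8.3e-07), and the dimmest, 1416741_at, differed by -0.24, with overlapping lines (adjusted p = 0.15). The size of the Col5a1 fall thus depends on which probe set is read.

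Col5a2, the usual partner of Col5a1 in the molecule, went the other way. Probe set 1422437_at (chromosome 1) read 13.98, 13.95, 13.93 and 14.05 in SThdh7/7 and 14.55, 14.62, 14.66 and 14.59 in SThdh111/111, a rise of 0.62 ± 0.06 (SE; adjusted p = 1.6e-06). No array of one line reached the range of the other, and the rise was 1.54-fold. After quantile normalization the log2 difference was smaller, 0.36 (adjusted p = 2.3e-04). The dimmer Col5a2 probe set rose by 0.69 ± 0.09 (SE; adjusted p = 6.5e-05). Col5a2 and Col3a1 are direct neighbours among the protein-coding genes of chromosome 1, and both rose.

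Col5a3, a chain of collagen V with a narrower tissue range, was lower. At probe set 1419703_at (chromosome 9) it read 9.85, 9.63, 9.99 and 9.68 in SThdh7/7 and 8.48, 8.53, 8.52 and 8.59 in SThdh111/111, a fall of 2.39-fold (log2 difference -1.26 ± 0.11, SE; adjusted p = 2.0e-06). The SThdh111/111 values were tightly grouped below all SThdh7/7 values. The other Col5a3 probe set was below the floor on all arrays and gave no fold, and with both averaged the call was lost (difference -0.57, adjusted p = 0.38).

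Col11a1, a fibrillar chain best known from cartilage that can also join collagen V molecules, was moderately higher. Probe set 1418599_at (chromosome 3) read 9.32, 9.33, 9.20 and 9.29 in SThdh7/7 and 10.50, 10.30, 9.94 and 9.87 in SThdh111/111, a rise of 0.87 ± 0.13 (SE; adjusted p = 2.3e-04). Values were more spread in SThdh111/111 (SD 0.30) than in SThdh7/7 (SD 0.06), but the lines stayed apart. The second Col11a1 probe set rose by 0.85 ± 0.13 (SE; adjusted p = 2.0e-04).

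The FACIT genes did not share a direction: Col12a1 was lower, Col16a1 higher and Col14a1 not called. Col12a1, whose product bridges fibrils in tendon and other tissues under load, read 11.32, 11.45, 11.78 and 11.78 in SThdh7/7 at probe set 1434411_at (chromosome 9) and 10.69, 11.21, 10.86 and 10.93 in SThdh111/111. It fell by 0.66 in log2 units (SE 0.12; adjusted p = 0.0013) and by 0.68 at the other bright probe set (adjusted p = 7.0e-04). The lines did not overlap, but the lowest SThdh7/7 value lay close to the highest SThdh111/111 value. The call was lost when arrays were centred on their medians (difference -0.51, adjusted p = 0.086) and when its 4 probe sets, of which 2 lay below the floor, were averaged (difference -0.30, adjusted p = 0.51).

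Col16a1, a FACIT-like chain of fibril and cell contacts with a single probe set on the array (1427986_a_at, chromosome 4), read 10.42, 10.34, 10.28 and 10.20 in SThdh7/7 and 10.95, 10.80, 10.87 and 10.52 in SThdh111/111. This is the smallest called change among the members, 0.48 ± 0.10 (SE; adjusted p = 0.0024), or 1.39-fold.

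Col14a1, which binds fibrils together with decorin, was dim. Probe set 1427168_a_at (chromosome 15) read 7.34, 8.0, 7.32 and 7.49 in SThdh7/7 and 7.29, 7.60, 7.55 and 7.63 in SThdh111/111, just above the floor, and the lines overlapped. The difference was -0.02, with a 95% confidence interval from -0.54 to 0.51 (adjusted p = 0.97), so changes of the size seen for Col16a1 could not be seen here. A second probe set lay around the floor, above it on 1 SThdh7/7 array and 2 SThdh111/111 arrays, and the last lay below it.

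For 6 pairs of chains that share a molecule or a fibril, the ratio between the members was compared within each array, where the scaling of the array cancels. The change of a ratio is the difference between the changes of its members given above, and the pairs were picked with those in view, so its p is no independent support. The level of a ratio depends on how each probe set responds and is not a ratio of molecules, so its change alone is read. For Col1a1 over Col1a2 the log2 ratio was 2.10, 2.04, 2.10 and 2.33 in SThdh7/7 and 0.01, -0.05, 0.08 and -0.14 in SThdh111/111. It fell by 2.17 in log2 units without overlap (exact two-sided permutation test over 70 splits, p = 0.029, the smallest that 4 against 4 allows; adjusted p = 0.043 over the 6 pairs). The rise was larger at the Col1a2 probe set than at the Col1a1 probe set. The ratio differed by -2.59 without probe sets that can match several transcripts and by -1.50 with all probe sets of a gene averaged.

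The ratio of Col5a1 over Col5a2 was -0.72, -0.84, -0.95 and -1.0 in SThdh7/7 and -2.48, -2.64, -2.84 and -2.82 in SThdh111/111, a fall of 1.82 in log2 units. Col11a1 over Col5a1 went from -3.82 ± 0.08 (SD, n = 4) to -1.75 ± 0.16, a rise of 2.06 in log2 units. With all probe sets of a gene averaged, Col5a1 over Col5a2 differed by -1.49 and Col11a1 over Col5a1 by 1.69. For Col3a1 over Col1a1 the ratio fell by 0.98, from 1.57 ± 0.19 to 0.59 ± 0.13 (SD, n = 4), but its size also depends on the probe sets. It differed by -0.64 without probe sets that can match several transcripts and by -0.51 with all probe sets of a gene averaged, and the dimmer probe sets of Col3a1 and Col1a1 rose by 1.54 and 1.58. Each of these 3 ratios, at the brightest probe sets, separated the lines fully and had the same exact permutation p of 0.029 (adjusted p = 0.043).

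Col5a3 and Col5a1 were both lower. Their ratio was -3.42, -3.48, -3.00 and -3.37 in SThdh7/7 and -3.59, -3.45, -3.30 and -3.18 in SThdh111/111, a difference of -0.06 with overlapping lines (exact permutation p = 0.66, adjusted p = 0.66). Col12a1 over Col14a1 went from 4.05 ± 0.45 to 3.40 ± 0.15 (SD, n = 4), a difference of -0.65 that did not pass (exact permutation p = 0.057, adjusted p = 0.069).

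**Figure D3:**
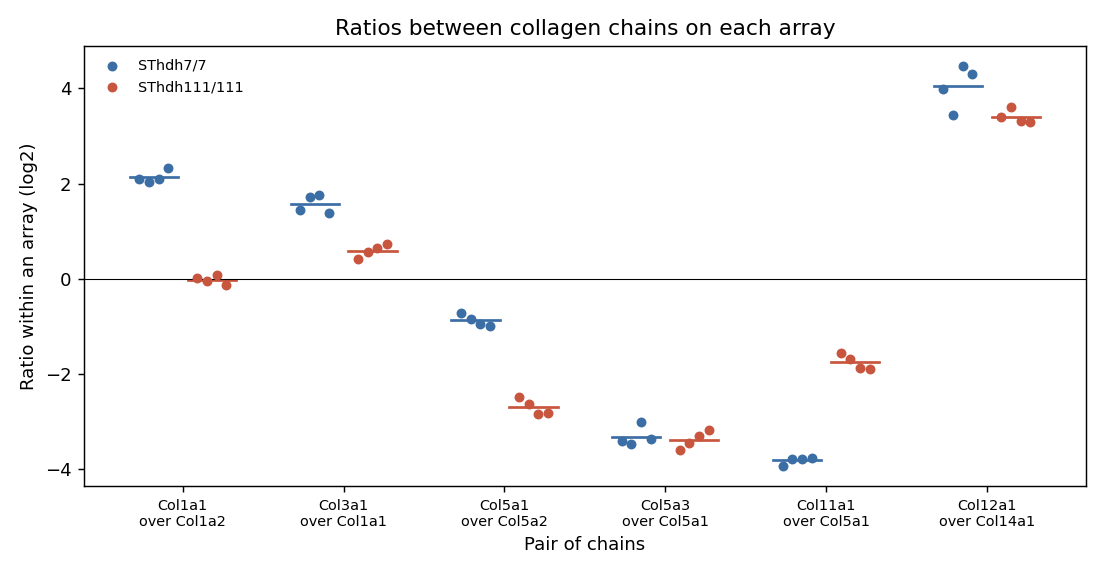
Log2 ratio within an array (y axis) for 6 pairs of collagen genes (x axis), with 1 point per array (blue SThdh7/7, red SThdh111/111) and bars for the means of 4. The ratios of Col1a1 over Col1a2, Col3a1 over Col1a1 and Col5a1 over Col5a2 are lower in SThdh111/111 and that of Col11a1 over Col5a1 is higher, each without overlap; the other pairs overlap.

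Around the members, 113 genes that make, bind, degrade or regulate collagen were measured, in 8 lists. Of these 113, 48 were higher and 16 lower in SThdh111/111. Among all named genes 13.1% were higher and 15.9% lower, and among those above the floor on all arrays 19.0% and 22.9%. With arrays centred on their medians 46 of the 113 were higher and 9 lower. The other fibrillar and FACIT chain genes were mostly dim. Of 9 measured, 1 rose, the cartilage collagen gene Col2a1 (1.40 ± 0.32, SE; adjusted p = 0.0058), which was above the floor on 3 SThdh7/7 arrays, and 1 fell, the FACIT gene Col9a3, at least 2.89-fold lower against the floor (adjusted p = 1.5e-04).

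Enzymes and chaperones of the endoplasmic reticulum that hydroxylate and fold the chains were higher in 11 of 18 cases and lower in 1 (median difference 0.37). After quantile normalization 10 were higher and 2 lower, and without SThdh7/7 samples 1 and 2 the counts were 9 and 2. P4ha2, a catalytic subunit of prolyl 4-hydroxylase, rose by 2.08 ± 0.10 (SE; adjusted p = 2.6e-09). Crtap, a partner in prolyl 3-hydroxylation, rose by 1.07 ± 0.08 (SE; adjusted p = 1.7e-07). The lysyl hydroxylase gene Plod2 was the lower gene in the count of 11 and 1. Plod2 went from 12.16 ± 0.07 to 10.63 ± 0.07 (SD, n = 4), a log2 difference of -1.53 (adjusted p = 1.1e-09).

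Genes for export from the cell and for removal of propeptides were higher in 5 of 13 cases and lower in 3, against 4 and 2 after centring and 3 and 3 without SThdh7/7 samples 1 and 2. Pcolce, an enhancer of propeptide cleavage, rose by 0.78 ± 0.06 (SE; adjusted p = 2.4e-07), and Sec23a, a coat protein of export vesicles, by 0.63 ± 0.10 (SE; adjusted p = 2.3e-04). The protease gene Bmp1, which cleaves the C-terminal propeptide, fell by 1.04 in log2 units (adjusted p = 2.1e-05). Pcolce2 was at least 2.12-fold lower against the floor (adjusted p = 0.0026).

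Lysyl oxidases start the crosslinking of fibrils. Of 4 measured, 3 rose and 1 fell. Lox went from 10.34 ± 0.09 to 14.17 ± 0.08 (log2 intensity, SD, n = 4), a rise of 3.84 ± 0.07 (SE; adjusted p = 1.4e-13), and Loxl1 rose by 1.27 ± 0.10 (SE; adjusted p = 4.1e-07). Loxl3 fell by 0.43 in log2 units (adjusted p = 0.0041), a call lost after centring, where the difference was -0.27 (adjusted p = 0.11), and with no intensity trend (adjusted p = 0.056).

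Proteoglycans and glycoproteins of the fibril surface rose in 11 of 16 cases and fell in 1 (median difference 1.48). Decorin (Dcn), which binds collagen fibrils and limits their width, was at least 162-fold higher against the floor (adjusted p = 7.8e-15). Asporin (Aspn), a related proteoglycan, went from 7.58 ± 0.21 to 13.27 ± 0.11 (SD, n = 4), a rise of 5.69 ± 0.11 (SE; adjusted p = 2.6e-13). Prelp fell by 1.00 in log2 units (adjusted p = 1.0e-05).

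Among collagen receptors 3 of 11 rose and 2 fell. Ddr2, a kinase activated by collagen, exceeded the floor on all SThdh111/111 arrays but on 1 SThdh7/7 array, and with dim values raised to the floor the log2 difference was 2.60 (adjusted p = 8.7e-07 for the values as measured). Mrc2, which takes up collagen fragments, rose by 1.84 ± 0.13 (SE; adjusted p = 1.2e-07). Cd44, mainly a hyaluronan receptor, fell by 1.25 in log2 units (adjusted p = 3.3e-07). The platelet receptor gene Gp6 was also lower (adjusted p = 0.024), but it was above the floor on only 2 arrays and the call was lost with values set to the floor (adjusted p = 0.34), without SThdh7/7 samples 1 and 2 (adjusted p = 0.27) and in 5 of 8 fits with 1 sample left out (difference -1.57 to -2.24). Proteases that degrade collagen rose in 5 of 10 cases and fell in 0. Mmp2 rose by 1.52 ± 0.06 (SE; adjusted p = 3.2e-10) and Mmp14, which activates it, by 0.63 ± 0.06 (SE; adjusted p = 5.8e-06).

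Of 32 factors and signals known to act on collagen genes 9 were higher and 7 lower, but 10 were higher and 2 lower after centring. The ligands of the transforming growth factor beta family, a classical stimulus of collagen I genes, were split. Tgfb2 rose by 1.13 ± 0.09 (SE; adjusted p = 3.8e-07) and Tgfb1 fell by 1.05 in log2 units (adjusted p = 2.7e-06). Tgfb3, above the floor on all arrays, was not called (difference 0.01, adjusted p = 0.97). The receptor gene Tgfbr2 rose by 0.90 ± 0.06 (SE; adjusted p = 1.1e-07), but differed by 0.31 with the mean of its probe sets (adjusted p = 0.43). Ccn2, a matricellular target of this pathway, fell from 12.32 ± 0.20 to 10.88 ± 0.36 (SD, n = 4), a log2 difference of -1.44 (adjusted p = 8.1e-06).

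**Figure D4:**
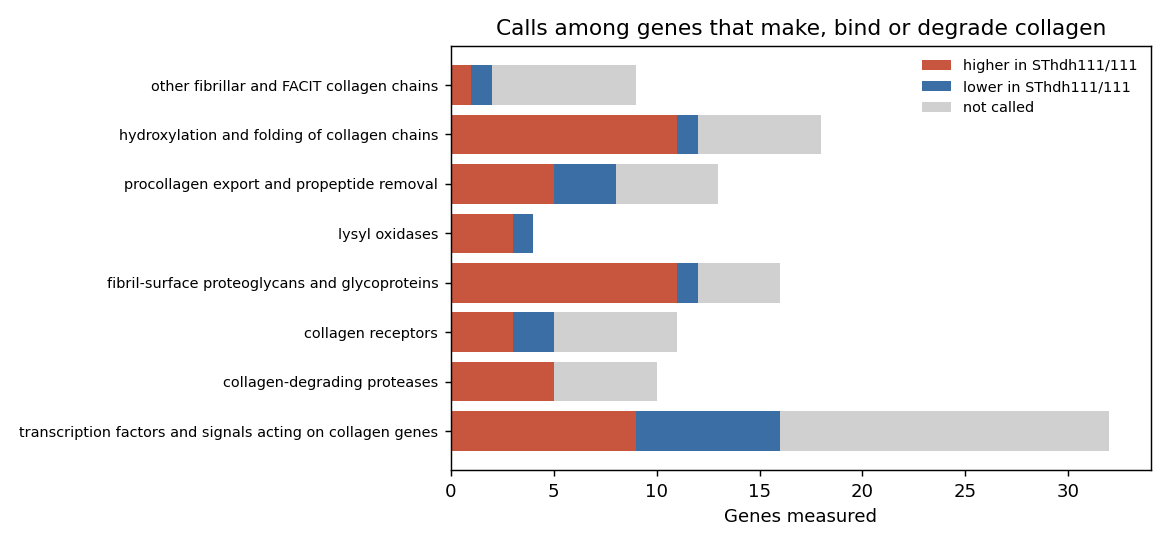
Number of measured genes (x axis) in each list of collagen-related genes (y axis) that were higher in SThdh111/111 (red), lower (blue) or not called (grey). Higher calls outnumber lower ones most in the folding list (11 against 1) and the fibril-surface list (11 against 1).

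Cell type markers were read beside the collagens. Of 18 fibroblast and meningeal markers, which exclude the collagen members but share Dcn, Postn and others with the fibril-surface list, 11 were higher and 2 lower. Their summed intensity was 55700 to 59100 over the SThdh7/7 arrays and 101000 to 105000 over the SThdh111/111 arrays, and Fap was below the floor on all of them. Such a sum is led by the brightest genes and is no measure of the whole list. S100a4 was bright in both lines (log2 means 14.92 and 14.81, not called). Dcn (4.95 and 14.36), Fn1 (13.07 and 14.22) and Postn (10.06 and 13.27) were bright in SThdh111/111. Periostin (Postn) rose by 3.21 ± 0.10 (SE; adjusted p = 4.5e-11), while Fbln2 and Twist2 fell by 0.56 and 0.37 in log2 units (adjusted p = 7.6e-05 and 4.1e-04; after centring Twist2 differed by -0.22, with an adjusted p of 0.20). Of 10 pericyte and smooth muscle markers 0 were higher, 2 were lower and 8 were not called, where 15.9% of all named genes were lower. Acta2 fell by 1.76 in log2 units (adjusted p = 7.1e-09), a call lost without probe sets that can match several transcripts (difference -0.62 at another probe set, adjusted p = 0.44), and Tagln was at least 7.62-fold lower against the floor (adjusted p = 1.3e-06). Their summed intensity was 5180 to 6300 in SThdh7/7 and 1850 to 2280 in SThdh111/111, with Myh11 and Cnn1 below the floor throughout. The part of these marker differences in the collagen differences was not tested.

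Of 10 neural progenitor markers 1 was higher and 4 lower. Sox2 fell by 2.06 in log2 units (adjusted p = 1.6e-08) and Pax6 was at least 6.96-fold lower against the floor (adjusted p = 6.2e-06), while Dlx2 was higher (adjusted p = 0.0027) and Gsx2, Hes5 and Fabp7 were below the floor on all arrays. Of 13 striatal neuron markers 2 were higher and 1 lower, and Ppp1r1b, Drd1, Pdyn and Gad1 were below the floor on every array of both lines. Drd2, Tac1, Gad2, Bcl11b and Arpp21 were above the floor on some arrays of each line and Foxp2 on all arrays. None of these was called. Penk, the enkephalin precursor, was above the floor on 1 SThdh7/7 array and on all SThdh111/111 arrays. Penk was higher by 2.96 ± 0.35 (SE; adjusted p = 2.5e-05) as measured, and by 2.41 with dim values raised to the floor. Rgs9 and Foxp1 were above the floor on all arrays, Rgs9 lower by a log2 difference of -0.71 (adjusted p = 3.7e-04) and Foxp1 higher by 0.29 (adjusted p = 0.022). Both calls were lost with probe sets averaged (Rgs9 difference -0.48, adjusted p = 0.20, and Foxp1 adjusted p = 0.49). Over all alternatives Foxp1 lost its call in 7 of 20. Astrocyte markers were higher in 3 and lower in 1 of 9 cases, oligodendrocyte lineage markers in 1 and 1 of 6, endothelial markers in 0 and 2 of 8, and microglial and blood cell markers in 1 and 1 of 10, with Aif1, Itgam and Ptprc below the floor on all arrays. In these lists Clu (2.12), Gja1 (0.72), Pdgfra (1.09) and Csf1r (0.49) were higher and Aldh1l1 (-2.47), Cnp (-0.47), Flt1 (-1.48), Cldn5 (-1.62) and Cd68 (-1.75) lower, as log2 differences, with Flt1 and Cldn5 below the floor on all SThdh111/111 arrays. Pdgfra, of the oligodendrocyte lineage list, is also a marker in the fibroblast and meningeal list, so its call is counted in both. The calls of Aldh1l1 and Csf1r were lost with probe sets averaged (differences -0.65 and 0.28, adjusted p = 0.28 and 0.28). Cldn5 lost its call in 7 of 19 alternatives and Cnp in 3 of 19. Without SThdh7/7 samples 1 and 2 their adjusted p was 0.217 and 0.094. Flt1 lost its call without probe sets that can match several transcripts (adjusted p = 0.104). Htt itself read 9.13 ± 0.18 and 8.71 ± 0.30 (log2 intensity, SD, n = 4), a difference that was not called (adjusted p = 0.084). That outcome depends on the settings. Htt was called lower with the filter at a log2 of 8 (difference -0.42, adjusted p = 0.046). It was also called lower without probe sets that can match several transcripts (difference -1.09 at another probe set, adjusted p = 0.0245).

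Some facts of the whole series bear on these values. SThdh7/7 samples 1 and 2 had median intensities near 174, against 136.2 to 147.0 on the other 6 arrays, and the highest control background. Without samples 1 and 2 the same 6 members were higher and the same 3 lower. Control background, the intensity that 95% of the bacterial controls stay under, also differed by line. It was at least 98.7 on every SThdh7/7 array and at most 77.5 on every SThdh111/111 array. Leaving out samples 1 and 2 does not remove this difference. With values below the control floor set to the floor, 7920 probe sets were called, against 9288 for the values as measured. The effect of the background difference itself on dim values was not tested. Over all probe sets tested 44.0% of 9288 calls were higher in SThdh111/111, and 60.5% of 7022 with median-centred arrays, which moved the median difference from -0.12 to 0.04. Called rises and falls of the members are larger than this shift.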

How the data were processed

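Total RNA of 4 samples per line was labelled and hybridised per the labels' protocols. The deposited values are intensities on a linear scale, scaled so that the mean with 2% trimmed at each end was 500.0 on each array. GCRMA is named in the submitters' processing notes, but the values lack its form, so the tool behind them is unsettled. Such signals are noisy when dim.

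Log2 was taken, 64 control probe sets were left out, and probe sets at a log2 of at least 4 on at least 4 of 8 arrays were kept (41409). Probe sets were named from the platform annotation, with symbols updated by Entrez number (34945 named 1 gene, 932 several, 9160 none). Of 226 listed symbols 212 had a probe set. A gene is read at its brightest probe set. Where a line lay below the control floor throughout, a fold is the brighter mean against the floor.

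The lines were compared in limma 3.58.1 under R 4.3.3 (lmFit, then eBayes, trend = TRUE). Two-sided p-values were adjusted over every kept probe set by the Benjamini-Hochberg method. The fit was checked on simulated data. The number of arrays limits the precision. Members, lists and tests were chosen with earlier results of these data known. Genes named by rule are the members, Htt, Tgfb1 and, per list, up to 2 called genes of lowest adjusted p in each direction. Some other genes of the lists, such as S100a4, Fn1 and Tgfb3, are named outside this rule. Their values under the alternatives are not given. Sample numbers occur in both lines, but deviations of same-numbered arrays correlated at -0.01 to 0.01, so they were not taken as pairs. Alternatives covered the filter, normalization, variance model, block, probe set choice, floor and each sample. Promoter windows were read from RefSeq (GRCm38.p6).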

Additional observations from a re-analysis of the deposited data

How the results depend on the processing

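Across 198 values of the members under alternatives, 195 kept their side of the threshold, 3 lost the call and 0 called values reversed, while the uncalled Col14a1 lay on both sides of 0 (-0.09 to 0.14). The 3 were Col12a1 after centring of the arrays (-0.51, adjusted p = 0.086) and, when all probe sets of a gene were averaged, Col12a1 (-0.30, adjusted p = 0.51) and Col5a3 (-0.57, adjusted p = 0.38), where dim probe sets enter the mean. Leaving out each sample in turn gave 9 called members every time and 8115 to 8754 called probe sets over the series. The sample number as a block gave 9 called members and 8828 called probe sets, and it changed no call of a member. Leaving out probe sets that can match several transcripts gave 6132 called probe sets of fewer tested and left Col16a1 with none. The ratio of Col12a1 over Col14a1 passed after quantile normalization (-0.81, adjusted p = 0.034; the cause was not tested). That of Col5a3 over Col5a1 ran from -0.13 to 0.041 without single samples, given here without a test. Over the other genes named by rule, 34 of 969 values lost the call, 2 gained it and 1 reversed. The reversed value was Aldh1l1, at 1.16 (adjusted p = 0.39) without probe sets that can match several transcripts, which put another probe set in its place. Both gains were of Htt. Called values that moved by over 1.5 times and kept the call include Dcn (4.83), Mmp14 (1.02) and Tgfb1 (-0.63) with probe sets averaged, and Prelp (-1.51) and Col9a3 (-3.73) without probe sets that can match several transcripts. Dim probe sets limit Col14a1 and the chains near the floor.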

Other observations

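Markers of cartilage and bone were read in the same fit, since Col11a1 and Col2a1 belong to cartilage. Of 9 measured, 3 were higher in SThdh111/111 and 1 lower. Sox9, the master regulator of cartilage, rose by 1.25 ± 0.23 (SE; adjusted p = 0.0011), and Col10a1, the collagen of hypertrophic cartilage, was at least 1.87-fold higher against the floor (adjusted p = 3.6e-05). Matn3, a cartilage matrix protein gene, was above the floor on 4 SThdh7/7 arrays and on 1 SThdh111/111 array and was lower (adjusted p = 6.9e-05). Ibsp, a bone marker, was below the floor on all arrays.

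Within SThdh111/111 the members did not all deviate the same way on an array. Their median deviation from the line mean was 0.10 on sample 1 and -0.10 on sample 4, against 0.00 on both over the 9860 genes above the floor on all arrays. Sample 4 was the lowest of its line for 6 of 10 members, and the highest for 2, and sample 1 was the highest for 5 and the lowest for 4. These are values without a test.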
